A study of Mus musculus with 20 samples.

Results

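Trimethylation of histone H3 at lysine 4 (H3K4me3) away from annotated transcript starts was examined in bone marrow cells of 4 mouse genotypes. The 4 deposited H3K4me3 peak lists were merged into 30092 regions, of which 29251 lay on the 19 autosomes. A region was kept if all 4 lists held a peak in it and if it lay more than 3000 bp from every transcript start of the GENCODE annotation (release 21, mm10). This left 3385 of the 18679 autosomal regions found in all 4 lists, and they are called the distal regions here. The other 15294 regions lay within 3000 bp of a start and are called the start regions, and 4894 regions lay away from starts but were found in only 1 to 3 lists. The distal regions were thus chosen by measured H3K4me3 values in all 4 genotypes, so their H3K4me3 is given as a description. H3K27ac and H3K4me1 came from other libraries, although the peaks of all 3 marks of a genotype were called against the same H3 library.

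The cells were lineage-negative (Lin-) bone marrow cells, the fraction left once mature blood cells have been depleted by their surface markers, which includes the stem and progenitor cells. WT mice were Ep300 fl/fl without Cre, Ep300Δ/Δ mice were Mx1-Cre;Ep300 fl/fl, Tet2-/- mice were Ep300 fl/fl;Tet2-/-, and Ep300Δ/ΔTet2-/- mice were Mx1-Cre;Ep300 fl/fl;Tet2-/-. The mice were C57BL/6 of both sexes. All 4 groups thus carried the floxed Ep300 allele, and by the methods all received 3 injections of poly(I:C) at 6 to 8 weeks of age. Mx1-Cre is driven by an interferon-inducible promoter that poly(I:C) activates, and it can also act in cells outside the blood. The deletion may thus not have been confined to Lin- cells, which was not measured here. The paper describes the knockout as hematopoietic-specific. Ep300 encodes p300, an acetyltransferase that acts on H3K27 among other sites, and Tet2 encodes an enzyme that oxidizes 5-methylcytosine. The files hold 1 library for each genotype and mark, so variation among mice is unknown and genotypes were compared without a test. Intervals in parentheses are exact (Clopper-Pearson) 95% intervals and cover counting error over regions only. In a bulk population, a mark in fewer cells and less of it per cell cannot be told apart.

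H3K4me3 is the characteristic mark of promoters, where it spreads over the nucleosomes next to a start, and it is also laid down at CpG-rich DNA and at genes of RNA polymerase III such as tRNA genes. H3K4me1 is typical of enhancers and of the flanks of promoters, and H3K27ac marks the active ones of both kinds. A strong enhancer can carry some H3K4me3 as well, and a start that is missing from an annotation looks like H3K4me3 away from starts.

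In the cell type check, all 9 progenitor genes tested (Kit, Cd34, Flt3, Spi1, Gata2, Runx1, Myb, Cebpa, and Mpo) had H3K4me3 within 3000 bp of a start in all 4 genotypes. Among genes of mature cells, Itgam and Klrb1c had it in all 4, and Cd3e, Cd4, Cd8a, Ms4a1, and Ly6g in none. Of 6 genes of other tissues, Neurod1 had H3K4me3 in all 4 lists without H3K27ac, and Alb, Afp, Myod1, Krt5, and Ins2 had neither mark. The H3K4me3 lists held 25012 to 27807 peaks, the H3K27ac lists 29659 in WT, 22727 in Ep300Δ/Δ, 24539 in Tet2-/-, and 18327 in Ep300Δ/ΔTet2-/- cells, and the H3K4me1 lists 90738 to 107392. Sequencing depth is unknown from peak lists.

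Sequences of 4 distal regions show the kinds of DNA involved. The first is a tRNA gene with 30 bp on either side, read 5′ to 3′ on the plus strand of RefSeq GRCm38.p6 (mm10), with the tRNA gene in capitals. It lies at chr13:21200174-21200338 between Trim27 and Gpx5, in the strongest distal region with a tRNA gene on chromosome 13, and is a tRNA-Leu gene of 105 bp.
tRNA-Leu region near Trim27: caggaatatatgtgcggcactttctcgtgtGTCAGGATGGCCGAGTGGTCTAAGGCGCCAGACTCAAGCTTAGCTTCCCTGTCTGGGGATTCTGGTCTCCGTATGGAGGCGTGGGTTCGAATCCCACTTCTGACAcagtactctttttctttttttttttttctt

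The next sequences are the 151 bp around the WT H3K4me3 summit on the plus strand, with each CpG in capitals, because CpG content separated the classes of regions described further on. The region upstream of Elovl5 (chr9:77910408-77910558) was the strongest CpG-rich one without a tRNA gene and had 11 CpGs in this window. The window in an intron of Erg (chr16:95439567-95439717), acetylated in all 4 genotypes, had 3. The window in an intron of Pde4d (chr13:109232246-109232396), acetylated in WT and Tet2-/- but in neither Ep300-deleted genotype, had 9.
Elovl5 region: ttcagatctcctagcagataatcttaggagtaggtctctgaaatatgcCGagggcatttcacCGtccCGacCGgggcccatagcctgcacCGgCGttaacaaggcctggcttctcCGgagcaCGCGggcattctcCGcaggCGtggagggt
Erg region: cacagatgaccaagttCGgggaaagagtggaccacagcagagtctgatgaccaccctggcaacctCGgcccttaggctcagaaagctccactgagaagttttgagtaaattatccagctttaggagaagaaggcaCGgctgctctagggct
Pde4d region: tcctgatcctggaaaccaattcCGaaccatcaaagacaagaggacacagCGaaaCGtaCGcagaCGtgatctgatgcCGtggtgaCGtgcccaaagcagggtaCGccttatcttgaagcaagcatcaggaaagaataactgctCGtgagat

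The distal regions were narrow and ranked low within the H3K4me3 lists. Their median width was 746 bp, against 1571 bp for the start regions, and their median distance to the nearest start was 11042 bp (quartiles 5842 and 21137 bp). Strength is given here as a percentile, the rank of a peak's fold over H3 within its own list, from 0 for the weakest to 100 for the strongest, since folds of different libraries are not comparable as amounts. The median H3K4me3 percentile of the distal regions was 39.4 in WT, 35.6 in Ep300Δ/Δ, 41.1 in Tet2-/-, and 38.8 in Ep300Δ/ΔTet2-/- cells. For the start regions the same medians were 68.5, 67.8, 68.7, and 67.8. In the WT list 26.5% of the distal regions and 73.0% of the start regions had a percentile of at least 50. At the distance limit, the 5 distal regions closest to a start were those of Chst11 and Zfp704 at 3002 bp, Il17ra at 3003 bp, and 1700122O11Rik and 4930553M12Rik at 3006 bp. The regions just short of it were those of Nckap5l at 2996 bp, Rab8b at 2993 bp, Gm12712 at 2991 bp, A430010J10Rik at 2978 bp, and Trak1 at 2977 bp. The regions on both sides of the limit had mean H3K4me3 percentiles of 14.1 to 58.0, and each side held both regions acetylated in all 4 genotypes and regions acetylated in none.

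Of the distal regions, 47.2% (45.5% to 48.9%) overlapped an H3K27ac peak in WT, 39.9% (38.3% to 41.6%) in Ep300Δ/Δ, 47.3% (45.6% to 49.0%) in Tet2-/-, and 40.6% (39.0% to 42.3%) in Ep300Δ/ΔTet2-/- cells. The background over all 18679 autosomal regions in all 4 lists was 62.7% in WT, 58.5% in Ep300Δ/Δ, 61.4% in Tet2-/-, and 56.0% in Ep300Δ/ΔTet2-/- cells. The share in distal regions was thus below the background in each genotype. It stood 7.24 percentage points lower in Ep300Δ/Δ than in WT cells and 6.71 points lower in Ep300Δ/ΔTet2-/- than in Tet2-/- cells. The H3K27ac lists of both Ep300-deleted genotypes were also the shorter ones of their pair. With every list cut to the 18327 peaks with the highest −log10 q, the first difference was 0.886 points and the second turned to -2.72 points. Whether the difference lay in the cells or in the length of the lists was not tested.

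The H3K4me1 share was 80.1% (78.7% to 81.4%) in WT, 81.2% (79.8% to 82.5%) in Ep300Δ/Δ, 80.2% (78.9% to 81.6%) in Tet2-/-, and 84.1% (82.8% to 85.3%) in Ep300Δ/ΔTet2-/- cells. The background over all regions in all 4 lists was 80.1% in WT, 81.9% in Ep300Δ/Δ, 78.1% in Tet2-/-, and 82.1% in Ep300Δ/ΔTet2-/- cells, so the shares of the distal regions were close to the background. The order of the genotypes changed with the processing. With peaks of −log10 q of at least 5 the shares were 63.6%, 55.7%, 71.8%, and 67.1%, and with lists of equal length 74.8%, 81.2%, 77.6%, and 83.2%, in the order WT, Ep300Δ/Δ, Tet2-/-, and Ep300Δ/ΔTet2-/-. The distal regions found in 1 to 3 H3K4me3 lists had H3K27ac less often, in 33.1% in WT, 19.4% in Ep300Δ/Δ, 25.6% in Tet2-/-, and 16.0% in Ep300Δ/ΔTet2-/- cells.

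**Figure D1:**
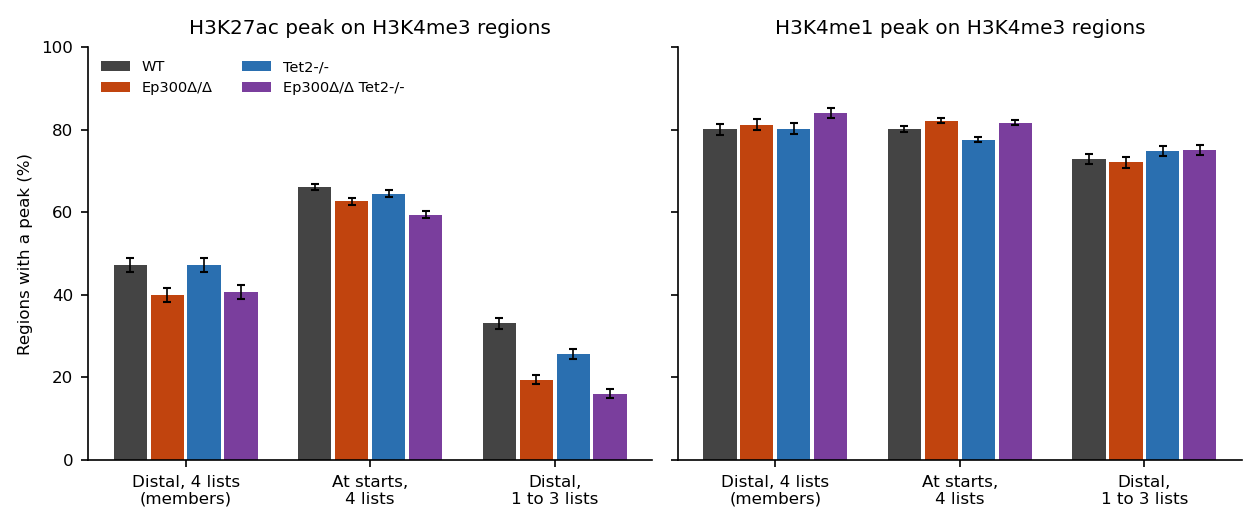
Share of H3K4me3 regions (y axis, percent) with an H3K27ac peak (left) or an H3K4me1 peak (right) in each genotype (bar color), for distal regions in all 4 lists (labelled members), start regions, and distal regions in 1 to 3 lists; lines are exact 95% intervals over regions, with 1 library per bar. H3K27ac covers 39.9% to 47.3% of the distal regions in all 4 lists and 59.4% to 66.1% of the start regions, whereas H3K4me1 lies near 80% in both.

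The place of H3K4me1 relative to the H3K4me3 summit did differ between the classes. In the distal regions a WT H3K4me1 peak covered the WT H3K4me3 summit itself in 67.1% (65.5% to 68.7%), and at 1000 bp on either side in 26.0%. In the start regions the summit was covered in 37.7% (36.9% to 38.5%), while the coverage at 1000 bp was 29.6%. In Tet2-/- cells 67.9% of distal and 30.7% of start summits were covered, and the coverage of start regions was highest, at 33.6%, 800 bp to the side, whereas in the other 3 genotypes it was highest at the summit. H3K27ac covered the summit in 44.2% of the distal regions in WT, 35.5% in Ep300Δ/Δ, 44.4% in Tet2-/-, and 37.4% in Ep300Δ/ΔTet2-/- cells, a measure that does not depend on the width of the region. H3K4me3 itself was confined more closely around distal summits: at 500 bp from the summit 23.6% of the distal and 66.9% of the start regions were still within a WT H3K4me3 peak.

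**Figure D2:**
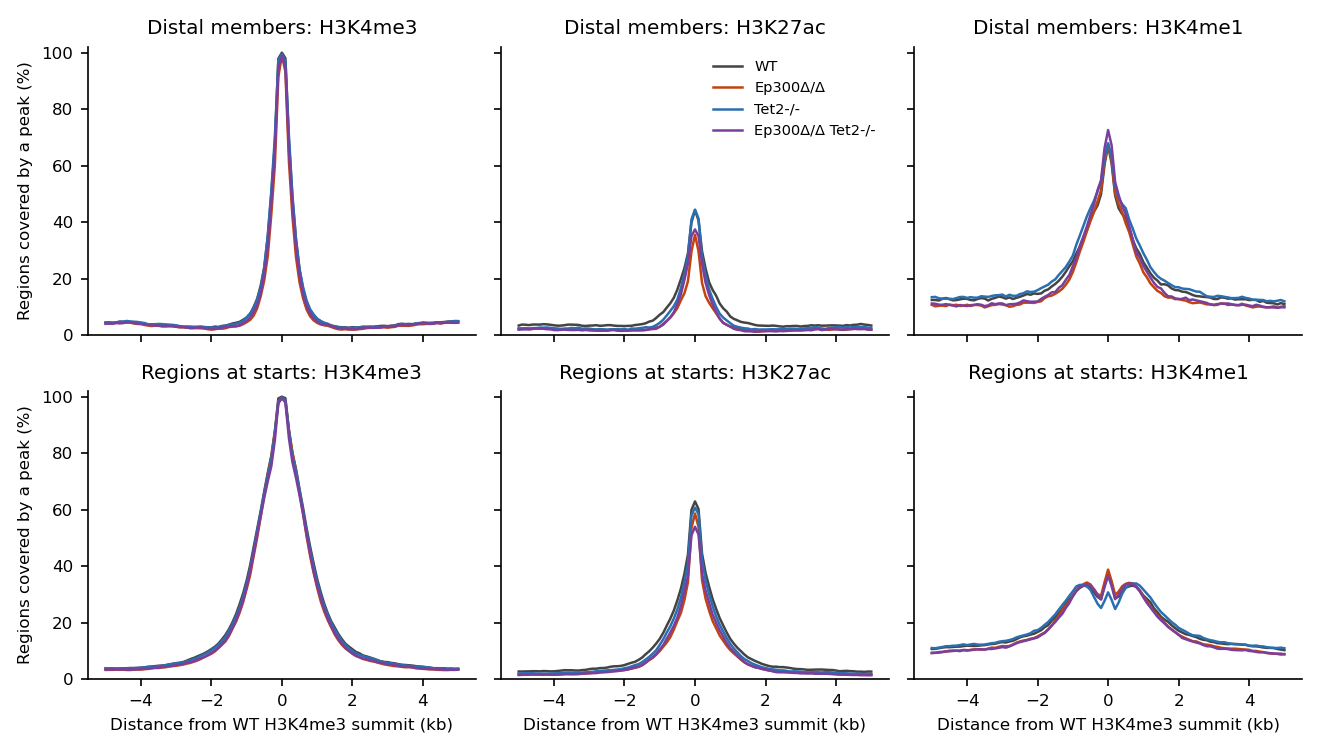
Percent of regions (y axis) covered by a called peak at each distance from the WT H3K4me3 summit (x axis, kb, in steps of 100 bp), for distal regions (top) and start regions (bottom), 3 marks and 4 genotypes (lines). H3K4me1 is centered on distal summits, where 67.1% to 72.6% are covered, and covers 30.7% to 38.8% of start summits, with shoulders on both sides that exceed the summit in Tet2-/- alone.

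Taken region by region, the distal regions fell mainly into those without H3K27ac in any genotype and those with it in all. No genotype had an H3K27ac peak in 1366 regions (40.4%, background 30.2%), and all 4 genotypes had one in 958 (28.3%, background 49.0%). The most frequent mixed patterns were H3K27ac in all but Ep300Δ/ΔTet2-/- (155 regions, 4.58%, background 4.08%), in WT alone (133, 3.93%, background 2.70%), in Tet2-/- alone (133, 3.93%, background 1.93%), in WT and Tet2-/- but neither Ep300-deleted genotype (115, 3.40%, background 2.26%), and in all but Ep300Δ/Δ (100, 2.95%, background 1.71%). The reverse of the fourth pattern, H3K27ac in both Ep300-deleted genotypes alone, was seen in 23 regions (0.679%, background 0.551%). The H3K27ac lists of the Ep300-deleted genotypes were the shorter ones of each pair. With both marks taken in WT, 1446 regions (42.7%) had H3K27ac and H3K4me1, 1265 (37.4%) H3K4me1 without H3K27ac, 151 (4.46%) H3K27ac without H3K4me1, and 523 (15.5%) neither. For H3K4me1, 2262 regions (66.8%, background 66.2%) had a peak in all 4 genotypes and 248 (7.33%, background 8.27%) in none.

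**Figure D3:**
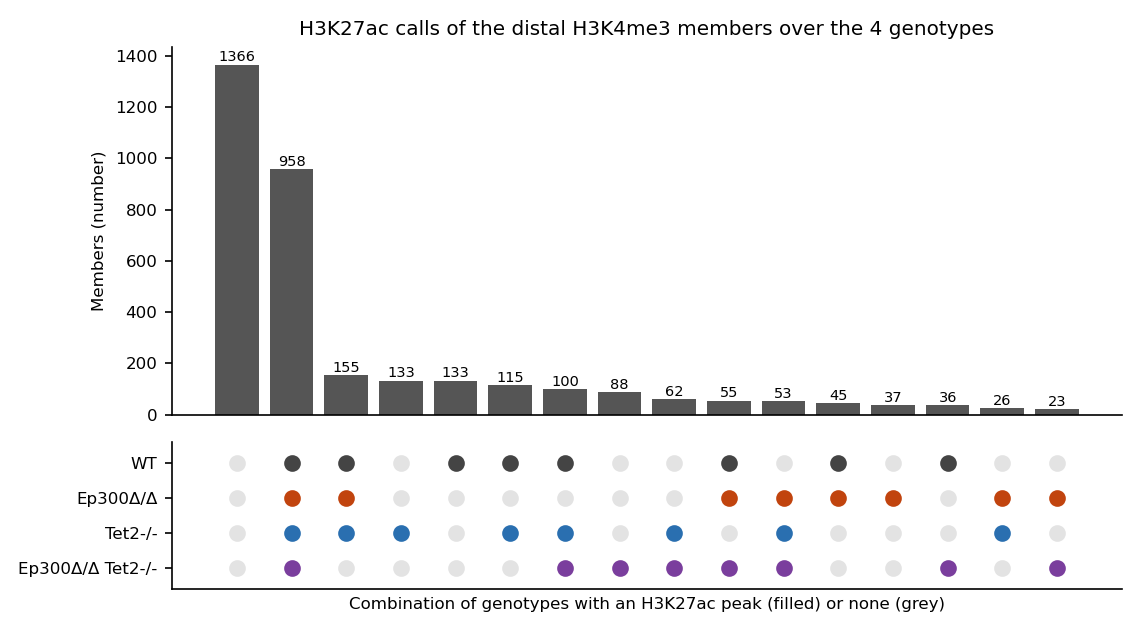
Number of distal regions (y axis) with each of the 16 combinations of H3K27ac calls over the 4 genotypes; filled dots mark genotypes with a peak. The combinations of no genotype (1366) and of all 4 (958) are the tallest bars, and the next holds 155 regions.

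The 958 regions acetylated throughout were wider than the 1366 never acetylated, with a median of 978 against 651 bp, and a wider region has more room for an overlap. They also had a higher median H3K4me3 percentile, 45.0 against 33.5, and H3K4me1 in all 4 genotypes in 83.0% against 52.4%. With the distal regions split by H3K4me3 percentile into 4 classes of equal size, 20.6% (17.9% to 23.5%) of the weakest class, 20.9% (18.2% to 23.8%) of the second, 24.6% (21.7% to 27.6%) of the third, and 47.2% (43.8% to 50.6%) of the strongest were acetylated in all 4 genotypes. The first 3 classes were thus close to each other and the strongest stood above them. The strongest class was also the widest, with a median of 1066.5 bp against 609 bp in the weakest. Regions without H3K4me1 in any genotype were acetylated throughout in 13.7% (9.68% to 18.6%), and those with H3K4me1 in all 4 in 35.1% (33.2% to 37.2%). Distance to the start differed little, with a median of 10756 bp for regions acetylated throughout and 11130 bp for those never acetylated.

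Loss of H3K27ac was counted where a distal region had a peak in the first genotype of a pair and none in the second. Of the 1597 distal regions acetylated in WT, 384 (24.0%, 22.0% to 26.2%) had no peak in Ep300Δ/Δ cells, against a background of 11.7%. Of the 1602 acetylated in Tet2-/-, 429 (26.8%, 24.6% to 29.0%) had none in Ep300Δ/ΔTet2-/- cells, against a background of 14.3%. With peaks of −log10 q of at least 5 these losses were 41.3% and 27.9%, and with peaks that covered 50% of the region 42.7% and 31.5%, so under both settings the first loss was the larger one. Peaks present in the second genotype alone made up 139 of 1352 (10.3%, background 5.35%) in the first pair and 202 of 1375 (14.7%, background 6.11%) in the second. Between genotypes that differed in Tet2, losses and gains were near each other in number with the full lists. From WT to Tet2-/- 269 of 1597 were lost (16.8%, background 8.97%) and 274 of 1602 gained (17.1%, background 7.07%). From Ep300Δ/Δ to Ep300Δ/ΔTet2-/- 263 of 1352 were lost (19.5%, background 11.8%) and 286 of 1375 gained (20.8%, background 7.92%). With lists of equal length the H3K27ac share of the distal regions was lower in WT (33.7%) than in Tet2-/- (37.9%) and lower in Ep300Δ/Δ (32.8%) than in Ep300Δ/ΔTet2-/- cells (40.6%). With the full lists, calls in distal regions differed between lists more often than the background in each of these 4 pairs and in both directions. Of the 1328 regions acetylated in both WT and Tet2-/-, 215 (16.2%, background 6.97%) were without H3K27ac in Ep300Δ/Δ, 270 (20.3%, background 11.1%) in Ep300Δ/ΔTet2-/-, and 115 (8.66%, background 3.97%) in both, while 958 (72.1%, background 85.9%) had it in both.

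H3K27ac peaks were also sorted by fold into 4 classes of equal size within their list. In every class, peaks on distal H3K4me3 regions lacked a counterpart less often than distal peaks without H3K4me3. Their loss was above that of peaks at start regions in each class of both lists, but the intervals lay apart in the second and strongest WT classes alone and overlapped in the other 2 WT classes and in all 4 of Tet2-/-. In the weakest class of the WT list, 60.2% (55.1% to 65.1%) of the 384 peaks on distal H3K4me3 regions had no counterpart in Ep300Δ/Δ cells, against 87.9% (86.7% to 89.0%) of 3011 distal peaks without H3K4me3 and 52.9% (50.6% to 55.1%) of 1963 peaks at start regions. In the second class the losses were 41.5% (37.1% to 46.1%), 76.2% (74.5% to 77.9%), and 35.0% (33.3% to 36.8%), in the same order. In the third class, the next to strongest, the losses were 14.8% (11.9% to 17.9%), 52.3% (49.6% to 54.9%), and 11.1% (10.2% to 12.1%). In the strongest class they were 1.93% (0.838% to 3.77%), 15.7% (11.7% to 20.5%), and 0.391% (0.251% to 0.581%). From Tet2-/- to Ep300Δ/ΔTet2-/- cells the weakest class gave 52.3% (47.5% to 57.0%), 86.1% (84.5% to 87.5%), and 51.8% (49.7% to 53.9%), and the second 40.3% (35.9% to 44.8%), 77.4% (75.2% to 79.5%), and 37.0% (35.2% to 38.8%). There the third class gave 17.0% (14.0% to 20.4%), 48.6% (44.6% to 52.6%), and 14.5% (13.4% to 15.6%), and the strongest 1.82% (0.672% to 3.93%), 13.6% (7.84% to 21.5%), and 1.42% (1.12% to 1.77%). The classes did not match the groups in strength. Median fold percentiles in the strongest WT class were 84.2 on distal H3K4me3 regions, 80.6 without H3K4me3, and 88.6 at start regions, and in the third class 63.3, 60.1, and 63.8. The distal H3K4me3 regions had been selected on a peak in the Ep300-deleted genotypes too, and peaks without H3K4me3 on its absence from all 4 lists, so the groups also differ in how they were picked.

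**Figure D4:**
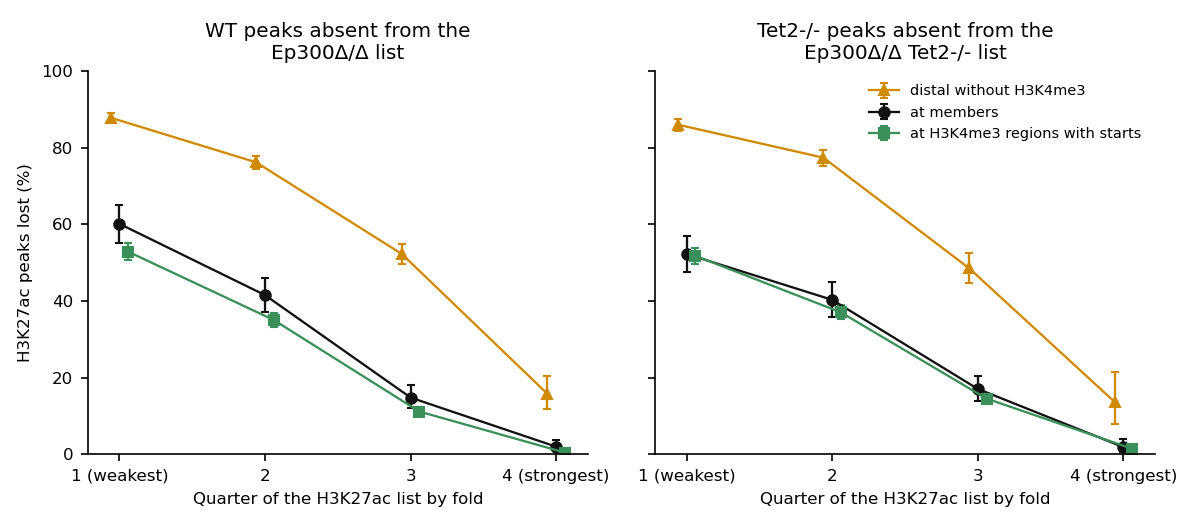
Percent of H3K27ac peaks of the first genotype with no overlapping peak in the second (y axis) by class of fold in the first genotype's list (x axis, 4 classes of equal size, weakest to strongest), for WT against Ep300Δ/Δ (left) and Tet2-/- against Ep300Δ/ΔTet2-/- (right); lines through points are exact 95% intervals over peaks. In each class, peaks without H3K4me3 (triangles) lie above those on distal H3K4me3 regions (circles, labelled members), which lie near those at start regions (squares), with intervals that overlap in all 4 classes on the right and in 2 on the left.

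Seen from the H3K27ac side, overlap with the distal H3K4me3 regions was counted by the number of genotypes acetylated. The 4 H3K27ac lists merged into distal autosomal regions of which 2015 were acetylated in all 4 genotypes, and 963 of these (47.8%) overlapped a distal H3K4me3 region. Of the 7837 acetylated in 1 genotype the share was 6.42%, of those in 2 genotypes 13.9%, and of those in 3 genotypes 24.3%. The distal H3K4me3 regions had been selected for a peak in all 4 genotypes, and regions in 1 to 3 H3K4me3 lists did not count as overlap. The rise with the number of genotypes is thus given as a description.

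Among the 115 regions acetylated in WT and Tet2-/- but in neither Ep300-deleted genotype, the 5 with the highest WT fold were 2 in introns of Pde4d, a phosphodiesterase of cyclic AMP, and one each near Gm36953, in an intron of Abcc2, an organic anion transporter, and in an intron of Sncaip. The first Pde4d region, whose summit sequence is given above, had H3K27ac percentiles of 90.8 in WT and 10.9 in Tet2-/- cells. The WT value came from a peak that also overlapped the neighboring Pde4d region (chr13:109229442-109231005), and that region had H3K27ac in all 4 genotypes, at 90.8, 74.1, 94.8, and 67.0. A first-genotype peak that met a peak of the second genotype outside the region was found for 2 of the 384 regions lost from WT to Ep300Δ/Δ and for 0 of the 429 from Tet2-/- to Ep300Δ/ΔTet2-/- cells. The second Pde4d region of the 5, 83927 bp from the nearest start, had 73.3 and 55.0. Both of these Pde4d regions had H3K4me1 peaks in all 4 genotypes. The region near Gm36953 had H3K27ac percentiles of 81.1 in WT and 66.3 in Tet2-/-, that of Abcc2 77.7 and 34.4, and that of Sncaip 77.3 and 81.5. A high rank in WT thus did not go with a high rank in Tet2-/- in each of the 5.

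Of all distal regions, 1792 (52.9%) had their center between genes, 951 (28.1%) in an intron, 450 (13.3%) in an exon of a noncoding transcript, 128 (3.78%) in a coding exon, and 64 (1.89%) in an untranslated exon part. The 128 in coding exons were acetylated throughout in 9.38% (4.94% to 15.8%) and never in 67.2% (58.3% to 75.2%). Intronic regions were acetylated throughout in 30.6% (27.7% to 33.6%) and never in 33.8% (30.8% to 36.9%). The coding-exon regions had H3K4me1 in 90.6% in WT, 83.6% in Ep300Δ/Δ, 82.0% in Tet2-/-, and 86.7% in Ep300Δ/ΔTet2-/- cells, and the intronic ones in 81.6%, 84.8%, 82.8%, and 86.4%. CpG-rich sequence was found in 47.7% of the coding-exon regions, against 10.8% of the intronic ones. Slightly fewer distal regions lay upstream (1600, 47.3%) than downstream of their nearest start.

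CpG content set the distal regions between promoters and enhancers. In the WT summit with 150 bp on either side, the median observed-to-expected ratio of CpG was 0.429 in the distal regions, 0.698 in the start regions, and 0.19 at the WT H3K27ac summits of 6855 distal regions that had no H3K4me3 in any list. With CpG-rich defined as at least 50% GC and a ratio of at least 0.6, 600 distal regions (17.7%, 16.5% to 19.1%), 66.2% (65.5% to 67.0%) of the start regions, and 19 (0.277%) of the distal acetylated regions without H3K4me3 qualified. Among distal regions the CpG-rich ones had a median H3K4me3 percentile of 47.9 against 35.3 for the rest. They were acetylated in WT in 32.0% against 50.5%, and never acetylated in 56.7% (52.6% to 60.7%) against 36.8% (35.0% to 38.7%). Their H3K4me1 share was 81.2% against 79.9% in WT, 81.3% against 81.1% in Ep300Δ/Δ, 76.0% against 81.1% in Tet2-/-, and 82.2% against 84.5% in Ep300Δ/ΔTet2-/- cells. The CpG-rich regions thus had the higher median H3K4me3 percentile and were less often acetylated.

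Short motifs of transcription factors were counted in the same windows on both strands, as a description of letters and not of binding. CCANNAGGG can include CCAAT, and no other of the 12 motifs can hold another whole. GGGCGG, the box of SP and KLF factors, was found in 23.8% of the distal regions, 44.7% of the start regions, and 4.68% of the distal acetylated regions without H3K4me3. The ETS motif with a CpG, CCGGAAG, had the same order, with 6.79%, 9.16%, and 1.74%. The ETS motif AGGAAGT, as bound by PU.1, was found in 15.0% (13.8% to 16.3%) of the distal regions, 6.83% (6.43% to 7.24%) of the start regions, and 10.8% (10.1% to 11.6%) of the regions without H3K4me3, so here the distal H3K4me3 regions had the highest share. For the GATA motif AGATAA the shares were 11.0%, 4.94%, and 12.5%. For the RUNX motif TGTGGTT they were 7.56%, 3.58%, and 7.40%, and for the AP-1 motif TGANTCA 8.69%, 4.16%, and 9.92%. For the MYB motif CAACTG they were 15.3%, 10.3%, and 17.1%. In these motifs the distal regions were close to the regions without H3K4me3. The remaining motifs gave 22.2%, 18.0%, and 19.7% for the E-box CAGCTG, 25.0%, 21.2%, and 28.9% for NFY (CCAAT), and 8.12%, 6.75%, and 6.16% for CTCF (CCANNAGGG). YY1 (AAGATGGC) gave 1.03%, 2.45%, and 2.01%, and CRE (TGACGTCA) 0.561%, 0.752%, and 0.233%. Within the distal regions, AGGAAGT was found in 17.5% (15.2% to 20.1%) of those acetylated in all 4 genotypes and 11.5% (9.85% to 13.3%) of those never acetylated, and TGANTCA in 10.2% (8.38% to 12.3%) and 6.59% (5.33% to 8.04%). GGGCGG had the opposite order, with 19.3% (16.9% to 22.0%) and 28.9% (26.5% to 31.4%). This motif holds a CpG, and 14.0% of the regions acetylated throughout and 24.9% of those never acetylated were CpG-rich. The motif shares were not adjusted for base composition.

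Some distal regions lay at starts that the GENCODE annotation does not list. RefSeq placed a transcript or tRNA gene start within 3000 bp of 602 distal regions (17.8%), and in 279 the start was inside the region. Most of these were predicted noncoding RNAs (303) and predicted mRNAs (148), followed by tRNA genes (80). The 2783 regions without such a start had H3K27ac in 46.4% in WT, 39.2% in Ep300Δ/Δ, 46.6% in Tet2-/-, and 39.5% in Ep300Δ/ΔTet2-/- cells. The pattern over genotypes was therefore also present without them. In addition, 61 distal regions overlapped an enhancer that RefSeq lists from experiments, and 41.0% (28.6% to 54.3%) of these were acetylated throughout.

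The tRNA genes were the clearest group with a known function. RNA polymerase III transcribes these short genes, whose promoter lies inside the gene, as in the capitals of the tRNA-Leu sequence above. Of 386 autosomal tRNA genes of RefSeq, 101 lay in 69 distal regions, with up to 4 in one region, and 93 in start regions. The 69 regions were strong and wide, with a median H3K4me3 percentile of 73.9 and a median width of 1334 bp, against 36.6 and 740 bp for the distal regions without a tRNA gene. H3K27ac was present in 53.6% in WT, Ep300Δ/Δ, and Tet2-/- and in 56.5% in Ep300Δ/ΔTet2-/- cells, so the share differed between genotypes by 2 regions at most. H3K4me1 was present in 52.2% in WT, 60.9% in Ep300Δ/Δ, 49.3% in Tet2-/-, and 50.7% in Ep300Δ/ΔTet2-/- cells, below the shares of 80.7%, 81.6%, 80.9%, and 84.8% in the other distal regions. By amino acid, genes for leucine (15 of 25), glutamate (8 of 20), glycine (8 of 28), proline (8 of 15), and threonine (8 of 17) were the most numerous in distal regions, against 26.2% of all 386. None of the 57 genes for cysteine, the amino acid with the most genes, and none of the 10 for tyrosine lay in one.

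Of the 69 regions 28 lay on chromosome 13, which holds a large cluster of tRNA and histone genes. These were acetylated throughout in 5 of 28 (17.9%, 6.06% to 36.9%) and never in 18, whereas the 41 on other chromosomes were acetylated throughout in 27 (65.9%, 49.4% to 79.9%) and never in 11. Their median H3K4me3 percentiles were 58.9 and 78.2. The run with the most distal regions, with gaps of at most 25 kb, was chr13:21199635-21279708 between Trim27, an E3 ubiquitin ligase gene, and Gpx5, an epididymal glutathione peroxidase gene. Each of its 9 regions held 1 tRNA gene, 1 was acetylated in all 4 genotypes, and 8 in none. The acetylated one, with the tRNA-Leu gene printed above, had H3K4me3 percentiles of 98.6 in WT, 88.3 in Ep300Δ/Δ, 89.1 in Tet2-/-, and 86.9 in Ep300Δ/ΔTet2-/- cells. Its H3K27ac percentiles were 73.6, 34.0, 88.5, and 78.3, in the same order, and it had no H3K4me1 peak. The strongest unacetylated one of the run, at 15682 bp from Gpx5, had H3K4me3 percentiles of 58.5, 78.3, 98.5, and 73.4 and H3K4me1 in all 4 genotypes. A neighboring run between Olfr1368 and Trim27, chr13:21158765-21173633, had 5 regions with 8 tRNA genes, of which 1 was acetylated throughout and 4 never.

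Other runs differed from these. The run from Zfp217, a zinc finger gene, to the noncoding gene Gm17619 (chr2:170151165-170221610) had 8 regions, none with a tRNA gene, of which 7 were acetylated in all 4 genotypes and 7 had H3K4me1 in all 4. The run from Dnajb12 to Ddit4, a stress-induced inhibitor of mTORC1, had 6 regions (chr10:59899264-59943843). Of these, 5 were acetylated in WT, 4 in Ep300Δ/Δ, 6 in Tet2-/-, and 3 in Ep300Δ/ΔTet2-/- cells. Runs of 4 or more were the exception: 29 of them held 141 distal regions, and 2386 regions (70.5%) had no neighbor within 25 kb.

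The distal regions belonged to 2782 nearest genes, of which 2332 had a single region, and 1924 regions (56.8%) were nearest to a start of a protein-coding gene, 414 (12.2%) of a lincRNA, and 382 (11.3%) of a processed pseudogene. Pde4d had the most, with 10 regions, 9 of them inside the gene. H3K27ac was found in 6 of the 10 in WT, 2 in Ep300Δ/Δ, 5 in Tet2-/-, and 3 in Ep300Δ/ΔTet2-/- cells, and H3K4me1 in 8, 6, 7, and 7. Trim27 had 8 regions, 7 with tRNA genes, and the same 2 were acetylated in each genotype. Gpx5 had 5, each with a tRNA gene and without H3K27ac. Gse1 had 7 regions inside the gene, all with H3K4me1 in each genotype and with H3K27ac in 2 in WT, 1 in Ep300Δ/Δ, 4 in Tet2-/-, and 1 in Ep300Δ/ΔTet2-/- cells. Map2k6, a kinase of the p38 pathway, had 6, of which 4 were never acetylated. Gm17619 had 5, each acetylated in all 4 genotypes, and Irf2bp2, which encodes a corepressor, had 5, of which 3 were. Tiam1, an exchange factor of Rac, had 5 with H3K27ac in 3 in WT and Tet2-/- and 1 in both Ep300-deleted genotypes. Lncppara had 5, with H3K27ac in 2, 3, 4, and 3, and 4930445N18Rik had 5, with 3, 1, 2, and 1, in the order WT, Ep300Δ/Δ, Tet2-/-, and Ep300Δ/ΔTet2-/-.

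Genes of blood cells were looked up in 8 lists with 223 genes, 219 of them autosomal. A distal region lay inside or nearest to 63 of these genes, against 1877 of all 20780 autosomal protein-coding genes (9.03%). Long genes can hold more regions, the lists were chosen with results of these data known, and the share is given as a description. The 113 regions at listed genes were acetylated throughout in 48 (42.5%) and never in 21 (18.6%), against 28.3% and 40.4% of all distal regions. RefSeq placed a start within 3000 bp of 19 of the 113, and in 6 of them, at Ikzf1, Kdm6b, Dnmt3a, Hdac7, Ptk2b, and Bcl6, an mRNA start of that gene lay inside the region. By list, the share of genes with a distal region was 43.3% for stem and progenitor transcription factors (13 of 30), 41.0% for signaling and survival (16 of 39), 32.1% for myeloid transcription factors (9 of 28), and 27.6% for cytokine receptors and adhesion (8 of 29). It was 23.8% for lymphoid transcription factors (5 of 21), 22.2% for erythroid and megakaryocyte genes (4 of 18), 21.4% for chromatin regulators (6 of 28), and 7.69% for granule and effector genes (2 of 26).

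The 13 stem and progenitor genes had 26 regions. Erg, an ETS factor of stem cells, had 3 in its introns, each acetylated in all 4 genotypes. The one 19136 bp from a start, whose summit sequence is given above, had H3K27ac percentiles of 93.6 in WT, 66.2 in Ep300Δ/Δ, 83.2 in Tet2-/-, and 79.9 in Ep300Δ/ΔTet2-/- cells. Its H3K4me3 percentiles were 31.3, 4.72, 32.2, and 33.4, so a strongly acetylated region had weak H3K4me3. The same held for the Runx1 region in an intron 24009 bp from a start. This gene of a core hematopoietic transcription factor had H3K27ac percentiles of 91.3, 75.5, 82.6, and 59.1, H3K4me1 percentiles of 99.2, 99.1, 99.7, and 96.5, and H3K4me3 percentiles of 21.7, 14.2, 10.4, and 8.48. Etv6, another ETS gene, had 5 regions, of which 3 were acetylated throughout and the one 50352 bp upstream in no genotype. The one farthest from an Etv6 start, in an intron at 79273 bp, was acetylated throughout. Lmo2 and Ikzf1, a cofactor and a zinc finger factor of blood cells, had 1 region each, acetylated throughout, and that of Ikzf1 contained a RefSeq mRNA start of the gene. Of the 2 Tal1 regions, the one at 3247 bp was acetylated throughout and the one at 7977 bp in WT and Tet2-/- at percentiles of 11.7 and 3.99. Runx3 had 3, Runx2 3, Ikzf2 2, and Hhex 1, and each gene had at least 1 region acetylated in all 4 genotypes. Meis1, a homeobox gene of stem cells, went the other way. Its intronic region had H3K27ac in Ep300Δ/Δ and Ep300Δ/ΔTet2-/- at percentiles of 56.7 and 45.7 and in neither of the other genotypes, and its region at 7363 bp had a peak in Ep300Δ/ΔTet2-/- alone, at 7.06. Hlf and Mecom had 1 region each without H3K27ac.

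**Figure D5:**
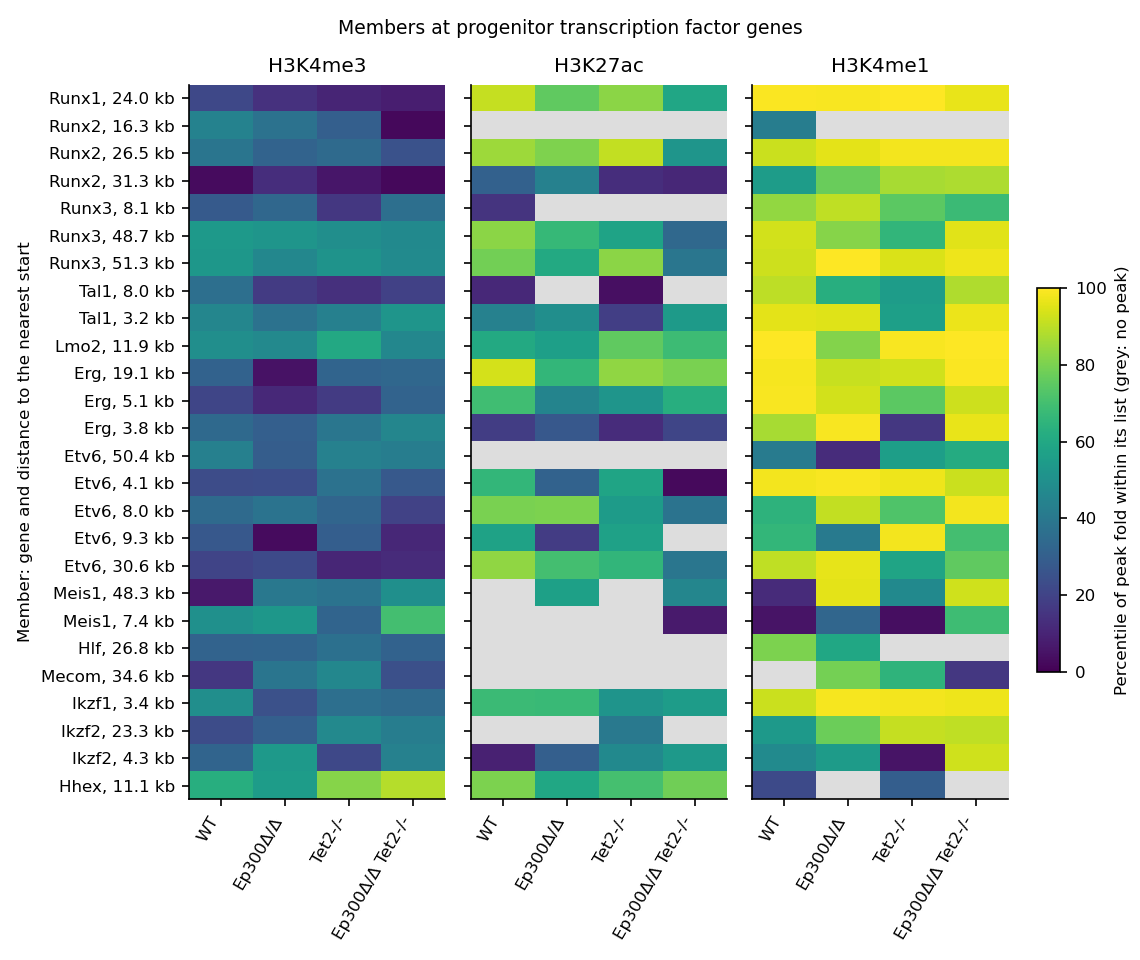
Percentile of the strongest peak's fold within its own list (color, 0 to 100, grey where no peak was called) for the 26 distal regions at 13 stem and progenitor transcription factor genes (rows, with the distance to the nearest start in kb), by genotype (columns) and mark (panels). The Runx1 row and the Erg row farthest from a start are bright for H3K27ac and H3K4me1 and dark for H3K4me3, and the 2 Meis1 rows have H3K27ac in Ep300-deleted genotypes.

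In the myeloid list, Fos, an AP-1 factor induced by signals, had 3 regions. The strongest, 10586 bp downstream, had H3K27ac percentiles of 86.3 in WT, 41.0 in Ep300Δ/Δ, 66.9 in Tet2-/-, and 67.5 in Ep300Δ/ΔTet2-/- cells. Irf2 and Bach1 had a region acetylated throughout, as did Egr1 and Batf, whereas the regions of Fosb, Klf2, and Bach2 included none acetylated in all 4 genotypes. Among the lymphoid factors, the 2 regions upstream of Tcf7 had H3K27ac in WT at percentiles of 31.7 and 46.6 and in neither Ep300-deleted genotype. In Tet2-/- cells the first of them had no peak either, and the second had one at a percentile of 24.5. The 2 Notch1 regions were acetylated in WT and Tet2-/- at percentiles of at most 37.6 and not in Ep300Δ/ΔTet2-/- cells. In Ep300Δ/Δ cells the one at 12461 bp had a peak at a percentile of 33.9, near its 37.6 in WT, and the one at 3988 bp had none. Zbtb16 had 1 region acetylated throughout, and Ets1 and Tcf4 had none such. In the signaling list, Nfkbia, the inhibitor of NF-κB, had 2 regions with H3K27ac in WT and Ep300Δ/Δ and none in Ep300Δ/ΔTet2-/- cells. The second of these, at 25432 bp, had percentiles of 48.1 in WT, 18.9 in Ep300Δ/Δ, and 31.1 in Tet2-/- cells. The Nfkb1 region had percentiles of 68.3 in WT and 59.6 in Tet2-/- cells and no peak in either Ep300-deleted genotype. Btg2, an antiproliferative gene, had 2 regions acetylated throughout, and Socs3, a feedback inhibitor of cytokine signals, had 2 with H3K4me1 in all 4 genotypes and no H3K27ac. Stat3, Tnfaip3, and Ier2 had 1 region each, acetylated throughout, as were 2 of 3 of Ccnd3 and 1 of 2 of Ptk2b. Mcl1, Bcl6, Stat5b, Pim1, and Dusp10 had none acetylated throughout.

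In the remaining lists, Cd47 had 4 regions, of which 3 were acetylated throughout. Flt3, the receptor of early progenitors, had 1 with H3K27ac percentiles of 71.1, 60.5, 29.2, and 61.4 in the order WT, Ep300Δ/Δ, Tet2-/-, and Ep300Δ/ΔTet2-/-. Itga4, Selp, Ptprc, Lcp1, Tyrobp, Vwf, Bcl2l1, and Kdm6b had 1 region each, acetylated throughout, and Cd9, Hdac7, and Dnmt3a had at least 1. Kdm6b encodes an H3K27 demethylase, and its region of 3443 bp, which contained a RefSeq mRNA start of the gene, had H3K27ac percentiles of 62.9, 58.9, 39.2, and 42.9, in the same order. Ank1, an erythrocyte membrane gene, had 1 region with H3K27ac in WT and Tet2-/- and in neither Ep300-deleted genotype. Zfpm1, Ccr2, and Zeb2 had H3K27ac in some genotypes, and Arid1a in none.

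The 10 distal regions with the highest mean H3K4me3 percentile were all acetylated in all 4 genotypes, and 3 held tRNA genes. The first, in an intron 52143 bp from the start of Gm16675, had H3K4me3 percentiles of 92.9 in WT, 93.9 in Ep300Δ/Δ, 99.9 in Tet2-/-, and 98.3 in Ep300Δ/ΔTet2-/- cells and H3K27ac percentiles of 99.3 or more, yet no H3K4me1 peak in any genotype. The second lay 5739 bp upstream of Elovl5, a fatty acid elongase gene, with H3K4me3 percentiles of 92.0 to 95.8 and all 3 marks in each genotype. Stard10, a lipid transfer gene, and Nenf also had all 3 marks in each genotype. The tRNA regions were those near Gm44852, Trim27, and Gm26110, the last with H3K27ac percentiles of 91.6, 86.9, 98.0, and 99.4 and no H3K4me1. The regions near Gm14125 and Gm13039 contained a RefSeq mRNA start, and the one near Tor1b, 9983 bp upstream, had H3K4me1 in WT and Ep300Δ/Δ alone.

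The strongest never acetylated regions were those near Ncoa7 and Gpx5, both with tRNA genes, and those in introns near Gm45615 and Gm14226 and in a coding exon of Pdlim5. Their mean H3K4me3 percentiles ran from 75.2 to 82.1. The last 3 had no H3K4me1 peak either, so H3K4me3 was their sole mark among those studied. In the Gm14226 region 100% of the summit window was repeat sequence, against a median of 7.31% in the distal regions. The 5 regions farthest from any GENCODE start lay 313138 bp from Ndufa4, 262081 bp from Gm11922, 186230 bp from Gm48913, 184747 bp from Gm31121, and 180936 bp from Gm22556. RefSeq placed a noncoding RNA start 2033 bp from the Gm48913 region and one 61793 bp from the Gm31121 region. The mean H3K4me3 percentiles of the 5 regions ran from 12.8 to 40.6. The Ndufa4 region had H3K27ac in 3 genotypes, at percentiles of at most 19.7, and the Gm22556 region, inside Wwox, in 3 at percentiles of 43.0 in WT, 36.3 in Tet2-/-, and 59.7 in Ep300Δ/ΔTet2-/- cells. The other 3 had none.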

How the data were processed

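The report rests on 12 narrow-peak lists, 1 for each of 4 genotypes and 3 marks. Of the 20 samples of the series, 8 (H3 and H3K27me3) had no list and were not analysed here. By the methods, each ChIP combined 5 µg of Lin- cell chromatin with 1 µg of antibody and a spike-in of 10 ng from Drosophila cells, and whether cells of several mice were pooled is not given in the sources used here. Experiments took place 2 weeks after poly(I:C) unless another time was named, and none was named for the ChIP. Labels give single-end and the methods paired-end reads, and the 2 sources name different H3 antibody numbers. The submitters' processing notes name cutadapt 1.15, BWA 0.7.13, Picard, and MACS2 2.1.1.20160309 on mm10. The authors called peaks against the H3 library of the same genotype and deposited for each peak its fold over that library (a ratio), its −log10 p and q, and a score, which was not used here. The lists are not scaled to the spike-in. Of the peaks, 0.137% to 7.17% per list (7.17% for H3K27ac in Ep300Δ/Δ) had a listed q above the stated 0.05, and they were kept.

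Peaks were merged where they shared at least 1 bp, distances ran from the region to the nearest GENCODE transcript start, and a region had a mark where at least 1 bp overlapped. Place was read at the center of the region. A list gene was given a region that lay inside the gene or nearest to its start. Exact 95% intervals were computed with scipy 1.17.1, in Python 3.11.15 with pandas 2.3.3, numpy 2.4.6, pysam 0.24.0, and matplotlib 3.10.9. The interval code was tested on simulated regions against bedtools 2.31.1, and sequences were read from RefSeq GRCm38.p6 with samtools 1.23.1. Chromosomes X and Y were left out. Named regions were the 10 strongest by H3K4me3, the 5 farthest from a start, the 5 on either side of 3000 bp, those of the 10 genes with the most regions and of the listed genes, the 5 with the highest WT H3K27ac fold that lacked it in both Ep300-deleted genotypes, and the 5 strongest never acetylated. The regions, gene lists, and rules were chosen with earlier results of these data known. The alternatives were 10 planned ones and 1 added after seeing the data. Some genes of the lists and some sequences are not reported here.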

Additional observations from a re-analysis of the deposited data

How the results depend on the processing

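With 1 library per genotype and mark and unknown depth, variation among mice is unknown, and a share counts as moved here when it left the interval of the reported one, and a number of regions when it differed by over 1.5 times. No paired analysis was possible because each genotype had 1 library per mark. Of 117 values under 11 alternatives, 50 moved and 67 did not. The cause was not tested. In each group of 4 values the order is WT, Ep300Δ/Δ, Tet2-/-, and Ep300Δ/ΔTet2-/-. With H3K27ac and H3K4me1 peaks of −log10 q of at least 5, the H3K27ac shares were 40.1%, 24.7%, 40.9%, and 34.2%, the H3K4me1 shares 63.6%, 55.7%, 71.8%, and 67.1%, and the loss from WT to Ep300Δ/Δ 41.3%. With that limit on H3K4me3 peaks, H3K27ac in Ep300Δ/ΔTet2-/- was 43.2%, H3K4me1 in Tet2-/- 78.8%, and the loss from Tet2-/- to Ep300Δ/ΔTet2-/- 23.1%. With lists of equal length, H3K27ac was 33.7%, 32.8%, and 37.9% in the first 3 genotypes, H3K4me1 74.8% in WT and 77.6% in Tet2-/-, and the losses 20.3% and 18.9%. Beyond 1000 bp, H3K27ac was 45.4%, 38.2%, 44.4%, and 37.9%. Beyond 10000 bp there were 1821 regions, and H3K4me1 was 77.0%, 79.2%, 78.5%, and 81.9%. With at least 3 lists, H3K27ac was 45.0%, 36.5%, 43.8%, and 36.8%, H3K4me1 in WT 78.6%, and the losses 27.6% and 29.5%. With peaks within 500 bp counted, H3K4me1 was 83.8%, 84.7%, 83.4%, and 86.6%. With peaks required to cover 50% of the region, H3K27ac was 36.2%, 23.1%, 35.0%, and 29.99%, H3K4me1 64.5%, 65.5%, 67.6%, and 70.9%, and the losses 42.7% and 31.5%. With starts of protein-coding transcripts alone, the loss from Tet2-/- to Ep300Δ/ΔTet2-/- was 24.1%. Without regions near RefSeq starts, added after seeing the data, no value moved. The H3K27ac difference of WT minus Ep300Δ/Δ ran from 0.886 to 15.4 points, and that of Tet2-/- minus Ep300Δ/ΔTet2-/- from -2.72 to 7.08 points, the sign turning with lists of equal length.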

Other observations

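Among the distal regions, H3K4me1 was less frequent in those beyond 10000 bp from a start than in nearer ones. In WT cells it was present in 83.6% of the 635 regions less than 5000 bp from a start, in 83.6% of the 929 at 5000 to 10000 bp, in 79.3% of the 912 at 10000 to 20000 bp, in 76.4% of the 703 at 20000 to 50000 bp, and in 69.4% of the 206 beyond 50000 bp. H3K27ac in WT was present in 46.3%, 51.0%, 46.2%, 45.8%, and 41.7% of the same classes. Chromosome 11 had the highest number of distal regions per length, 2.21 per Mb, and chromosome 14 the lowest, 1.02 per Mb. These values were not tested.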
